A study of Mus musculus with 16 samples.

Results

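The 61 synaptic vesicle and exocytosis genes described here are the protein-coding genes of the deposited table that carry a name of the synapsins (Syn1, Syn2 and Syn3), of synaptophysin (Syp), Snap25, the SV2 proteins (Sv2a, Sv2b and Sv2c) or the RAB3 proteins (Rab3a, Rab3b, Rab3c and Rab3d), or a name made of Syt, Cplx, Vamp, Stx or Stxbp and a digit. They were found by matching the 35328 Ensembl identifiers of the table to the GENCODE M21 annotation of the mouse genome (GRCm38, the build called mm10). They comprise 17 synaptotagmins (Syt), 14 syntaxins (Stx), 7 syntaxin-binding proteins (Stxbp), 7 vesicle-associated membrane proteins (Vamp), 4 complexins (Cplx), 3 synapsins, 3 SV2 genes, 4 Rab3 genes, Snap25 and Syp. Stx19 and Vamp7, which also carry such names, were not analysed here.

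RNA of the dorsal hippocampus was sequenced from 16 male C57Bl6/J mice, 4 in each group, to ask how regular caffeine intake acts on gene expression at rest and after learning. HC_water mice drank water and stayed in the home cage, and HC_Caffeine mice stayed there while drinking caffeine at 0.3 g/L for 2 weeks, from 8 to 9 weeks of age. MWM_water and MWM_Caffeine mice drank the same fluids and were trained for 3 days in the Morris water maze, a spatial learning task, with tissue taken 1 hour after the last trial. The labels name no transgene or deletion, each library came from its own mouse, and swimming, handling and learning cannot be told apart in the comparison with home cage mice.

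Transmitter release depends on a small set of interacting proteins. VAMP2 on the vesicle and a syntaxin and SNAP-25 on the plasma membrane form the SNARE complex that drives fusion, syntaxin-binding proteins guide its assembly, synaptotagmin 1 is the calcium sensor of fast release, and complexins clamp and promote fusion. Synapsins tether vesicles in clusters, synaptophysin and the SV2 proteins are membrane proteins of the vesicle, and RAB3 proteins dock vesicles at the active zone, while many other syntaxins, VAMPs and synaptotagmins work in endosomes, lysosomes, autophagosomes or dendrites.

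Libraries held 23078094 to 49949281 counts on genes, and 58 of the 61 genes passed the count filter and were tested. The other 3 were near absence: Vamp9 had 1 to 15 counts per library, and Cplx4, a complexin of the retina, and Syt8 had 0 to 6 each. Values are CPM, the counts scaled to the TMM-adjusted library total, and a level per length is that value per kb of exon in the gene model. The 6 neuron markers (Rbfox3, Tubb3, Map2, Nefl, Eno2 and Elavl4) summed to 3211 to 3755 CPM, and the 5 markers each of dentate granule, CA1 and CA3 cells were detected in every group. HC_Caffeine 17 stood apart, with the largest mitochondrial share (4.49% of counts, against 3.23% to 3.89% in the others) and the lowest neuron sum (3211 CPM). MWM_water 24 stood apart too, with an oligodendrocyte sum (6 markers) of 11362 CPM against 4712 to 8485 in the other 15, the lowest CA1 sum (417 CPM) and the highest CA3 sum (461 CPM). Choroid plexus markers (7 genes) summed to 304 to 2343 CPM in HC_water, 188 to 495 in HC_Caffeine, 161 to 431 in MWM_water and 114 to 201 in MWM_Caffeine, with HC_water 20 highest. As a check of the labels, the 6 learning response genes (Fos, Arc, Egr2, Npas4, Junb and Nr4a1) summed to 146 to 247 CPM in the 8 home cage mice and to 248 to 419 in the 8 trained mice. HC_Caffeine 2 (247 CPM) and HC_Caffeine 17 (200 CPM) were the highest home cage mice. HC_Caffeine 2 lay just under the lowest trained mouse, MWM_water 24 (248 CPM).

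Many genes of the fusion machinery and of the vesicle, though not all, were the most abundant members per length. Cplx2 (357 CPM per kb, mean of 16 libraries), Snap25 (339), Syp (313), Vamp2 (272), Cplx1 (234), Rab3a (223), Syt1 (208), Syt11 (166), Syn1 (141), Syn2 (116) and Sv2a (104) were among the highest. Stx1a (38.6 CPM per kb), Sv2b (63.2) and Vamp1 (15.1) lay lower. Syt11, a synaptotagmin that lacks calcium-sensing residues and acts in endocytosis and vesicle pools, was the second synaptotagmin after Syt1. A gap followed Sv2a, whose 16 libraries (96.8 to 112 CPM per kb) did not overlap those of the next gene, Syt13 (53.7 to 73.2). Such a separation was rare: of the 60 pairs of neighbours in the order of levels, 4 had ranges that did not overlap, and Cplx2 lay above Snap25 in 11 of 16 libraries. The lowest members of other families were Rab3d (4.91 CPM per kb), Sv2c (3.92) and Stxbp4 (2.02). At the low end were Cplx3 (1.17 CPM per kb), Syt9 (1.08), Syt6 (1.07), Vamp5 (0.876), Syn3 (0.601), Syt15 (0.251) and Stx11 (0.0564), the last with 0 to 16 counts per library.

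**Figure D1:**
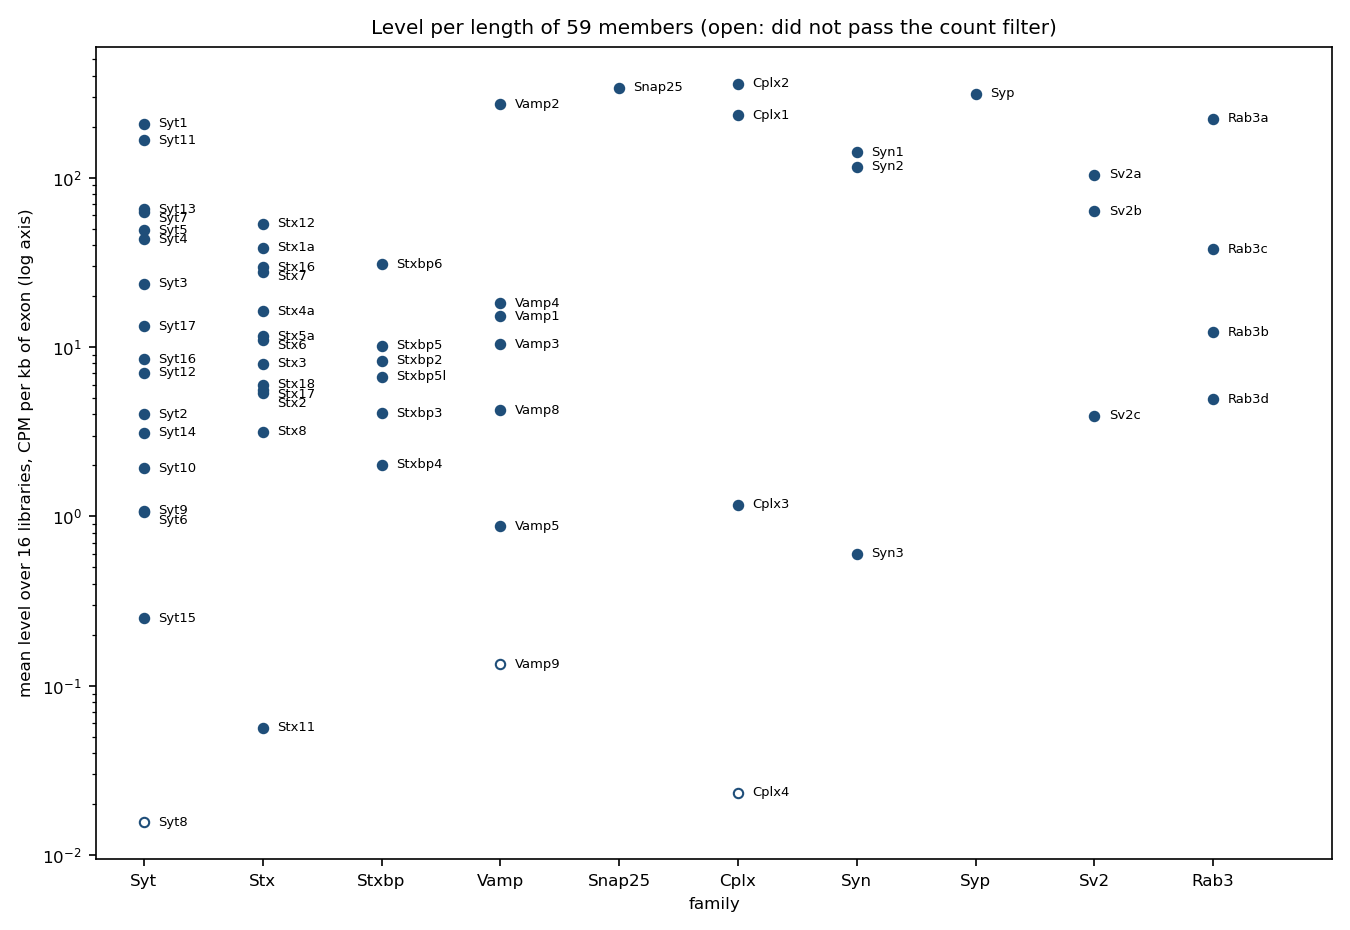
Mean level of 59 members over 16 libraries, in CPM per kb of exon on a log axis, by gene family; filled points passed the count filter and the 3 open points did not. Cplx2 (357), Snap25 (339) and Syp (313) are at the top, and Syt8, Cplx4, Stx11 and Vamp9 are at the bottom.

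Within several families 1 member carried most of the summed level per length. Vamp2 held a mean of 84.7% of the VAMP sum, Rab3a 80.2% of the Rab3 sum and Sv2a 60.8% of the SV2 sum. Cplx2 (60.3%) and Cplx1 (39.5%) shared the complexin sum, and Syn1 (54.9%) and Syn2 (44.9%) the synapsin sum. The synaptotagmin sum was spread more widely, over Syt1 (31.6%), Syt11 (25.3%), Syt13 (9.88%), Syt7 (9.50%), a slow calcium sensor, Syt5 (7.45%) and Syt4 (6.62%).

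Ratios between paralogs were compared across the groups as a measure of isoform balance. The ratio of Vamp2 to Vamp1 per length was 18.0 on average (16.7 to 19.4 over 16 libraries), that of Cplx2 to Cplx1 1.54 (1.22 to 1.84) and that of Syn2 to Syn1 0.818 (0.737 to 0.866). Of the 6 ratios that were set side by side, Sv2a to Sv2b was 1.80 ± 0.203 (SD, n = 4) in HC_Caffeine and 1.57 ± 0.214 (SD, n = 4) in MWM_Caffeine mice. That difference lay within the spread between mice (exact two-sided permutation test, p = 0.2, adjusted p = 0.984). The same test gave the same p for Syn2 to Syn1 in learning under caffeine and for Syt1 to Syt7 in caffeine after learning. Of the 24 tests of 6 ratios in 4 comparisons, 0 had a p under 0.05, where the smallest that 4 against 4 mice allow is 0.0286.

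The 11 core genes of fusion and of the vesicle (Syt1, Stx1a, Snap25, Vamp2, Cplx1, Cplx2, Syn1, Syn2, Syp, Sv2a and Rab3a) passed the test in 0 of the 4 comparisons between 2 groups (edgeR quasi-likelihood test, adjusted p under 0.1 over 17830 genes, of which 0% passed for caffeine in the home cage and after learning, 0.97% for learning under water and 5.28% for learning under caffeine). Snap25 measured 2333, 2246, 2266 and 2439 CPM in the HC_water mice, 2579, 2268, 2245 and 2081 in the HC_Caffeine mice, 2513, 2413, 2188 and 2104 in the MWM_water mice and 2356, 2312, 2248 and 2255 in the MWM_Caffeine mice. The ranges of the 4 groups overlapped, and HC_Caffeine mice held both the highest and the lowest value.

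For Snap25, the log2 fold change of caffeine against water was -0.02 (95% interval -0.16 to 0.12) in the home cage and -0.0072 (-0.15 to 0.13) after learning, and that of learning against home cage was -0.01 (-0.15 to 0.13) under water. Syt1 was at 1775, 1734, 1682 and 1718 CPM in the HC_water mice, 1805, 1586, 1695 and 1502 in the HC_Caffeine mice, 1786, 1889, 1754 and 1836 in the MWM_water mice and 1725, 1756, 1719.6 and 1724 in the MWM_Caffeine mice. The trained water mice were at or above 1754 CPM and HC_Caffeine 17 was lowest. The Syt1 log2 fold change of learning was 0.07 (95% interval -0.04 to 0.18) under both fluids.

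Vamp2 measured 1089, 972, 1029 and 1086 CPM in the HC_water mice, 1084, 987, 978 and 1135 in the HC_Caffeine mice, 1036, 1077, 966 and 891 in the MWM_water mice and 1052, 1093, 1060.5 and 1027 in the MWM_Caffeine mice. The groups overlapped, with MWM_water 38 lowest. The other core genes ranged over the 16 mice from 93.7 to 115 CPM for Stx1a, from 433 to 586 CPM for Cplx1, from 1466 to 1899 CPM for Cplx2, from 416 to 508 CPM for Syn1, from 662 to 937 CPM for Syn2, from 1469 to 1736 CPM for Syp, from 449 to 517 CPM for Sv2a and from 429 to 568 for Rab3a.

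Of the core genes 0 had an unadjusted p under 0.05 in these 4 comparisons. Syn2 had the highest upper bound of the core genes, in learning against home cage under caffeine (log2 fold change 0.15, -0.02 to 0.32), and across the 11 genes and 4 comparisons fold changes ran from -0.09 to 0.15. The interval bounds over those 44 tests reached from -0.26 to 0.32, that is, from -16.6% to +24.8%, and changes within these bounds could not be told from 0 with 4 mice a group.

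**Figure D2:**
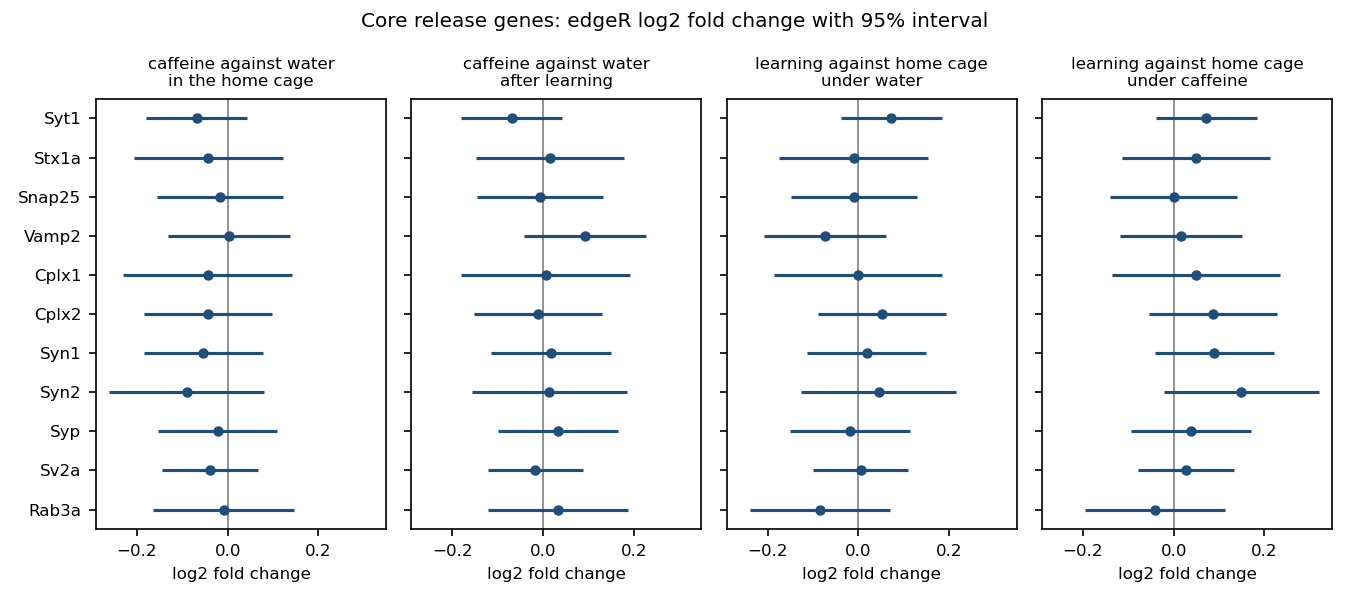
Log2 fold change (points) with its 95% interval (lines) from edgeR for 11 core genes, in the 4 comparisons of 2 groups of 4 mice. Every interval crosses 0, and the highest upper bound is that of Syn2 (0.32) for learning under caffeine.

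Learning against home cage, averaged over both fluids, was the comparison in which most members were called. It asks which genes differ 1 hour after maze training in the mean of the water and caffeine mice, 8 mice against 8. Syt13 and Syt4 rose and Vamp8, Stx17, Syt9 and Syt12 fell, so 6 of 58 tested members passed (10.3%, where 14.5% of all 17830 genes passed), 2 higher (background 7.81%) and 4 lower (background 6.71%). The share among the members was thus not above that of all genes, and the median log2 fold change was 0.01 over the members and -0.01 over all genes. At an unadjusted p under 0.05 there were 9 members (15.5%, against 25.5% of all genes). DESeq2 called 8 members, 4 in each direction. The average draws on the same mice as the comparisons within each fluid that follow, so these are not separate evidence. In bulk tissue, fewer cells of a type and less RNA per cell cannot be told apart.

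Syt13, a synaptotagmin whose C2 domains lack calcium-binding residues, had the smallest p of the members. Syt13 measured 218, 242, 231 and 246 CPM in the HC_water mice, 238, 232, 243 and 202 in the HC_Caffeine mice, 263, 258, 243 and 252 in the MWM_water mice and 275, 255, 251 and 261 in the MWM_Caffeine mice. In 7 of 8 trained mice Syt13 exceeded the highest home cage mouse (246 CPM), and under caffeine the groups did not overlap. The averaged log2 fold change was 0.15 (SE 0.042, 95% interval 0.07 to 0.24, adjusted p = 0.0331, edgeR), with 0.12 (-0.01 to 0.24) under water and 0.19 (0.06 to 0.31) under caffeine. It passed in 16 of 16 fits that left out 1 library, MWM_water 24 included.

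Syt13 also moved with markers of the hippocampal fields. Across the 16 libraries it correlated with the summed CA3 markers (Pearson r = 0.779, permutation p = 0.00055; Spearman rho = 0.653, permutation p = 0.00736; adjusted p = 0.00596 and 0.0487 over 65 relations) and inversely with the CA1 markers (r = -0.747, permutation p = 0.00104; rho = -0.771, permutation p = 0.00081; adjusted 0.00886 and 0.0105). After the group means were removed, r was 0.878 with CA3 and -0.711 with CA1. Without the 2 libraries farthest from the median of the list it was 0.483 and -0.706, so the relation with CA3 rests largely on those 2 libraries. In the average over both fluids 5 of 5 CA3 markers had positive and 5 of 5 CA1 markers negative log2 fold changes (medians 0.16 and -0.21), of which 0 and 1 passed. CA1 sums ran from 531 to 780 CPM in the home cage and from 417 to 649 in trained mice, CA3 sums from 259 to 444 and from 344 to 461, and 0 markers of either list were at 0. Their part in the Syt13 result was not tested.

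Syt4, a synaptotagmin of dense-core vesicles and postsynaptic organelles that neuronal activity can induce, was the other gene that rose. Syt4 measured 167, 164, 156 and 154 CPM in the HC_water mice, 174, 151, 168 and 147 in the HC_Caffeine mice, 164, 182, 180.1 and 188 in the MWM_water mice and 165, 177, 192 and 183 in the MWM_Caffeine mice. All 8 trained mice lay above the home cage median (160.0 CPM) and 6 above the highest home cage mouse. The averaged log2 fold change was 0.16 (SE 0.045, 95% interval 0.06 to 0.25, adjusted p = 0.0397, edgeR), nearly the same under water (0.15) and caffeine (0.16). Another gene, Gm26658, covers 14.5% of Syt4 exon bases on the opposite strand, and whether counting used strand is not given in the sources used here, so the Syt4 counts are uncertain to that extent.

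Of the members that fell, Vamp8 and Stx17 belong to late endosomal and autophagosomal fusion, and Vamp8 to granule exocytosis in nonneuronal cells. Vamp8 measured 11.4, 10.1, 9.72 and 12.4 CPM in the HC_water mice, 8.7, 13, 9.51 and 11.2 in the HC_Caffeine mice, 10.4, 8.4, 7.83 and 8.57 in the MWM_water mice and 8.1, 9.76, 8.45 and 8.62 in the MWM_Caffeine mice. Vamp8 was below the lowest home cage mouse in 6 of 8 trained mice. Its averaged log2 fold change was -0.29 (SE 0.087, 95% interval -0.47 to -0.11, adjusted p = 0.0492, edgeR), with -0.31 under water and -0.27 under caffeine.

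Stx17 was at 36.8, 34.3, 35.9 and 35.5 CPM in the HC_water mice, 31.4, 32.7, 35.1 and 32.7 in the HC_Caffeine mice, 32.5, 31.9, 31.2 and 32.3 in the MWM_water mice and 32.4, 32.6, 29.2 and 30.1 in the MWM_Caffeine mice. The HC_water mice (34.3 to 36.8 CPM) lay above all MWM_water mice, whereas the caffeine groups overlapped. The averaged log2 fold change of Stx17 was -0.12 (SE 0.037, 95% interval -0.20 to -0.04, adjusted p = 0.0559, edgeR).

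Syt9, a calcium sensor of fast release in some neurons, was scarce, at 110 to 249 counts per library. Syt9 measured 6.35, 4.01, 5.17 and 6.69 CPM in the HC_water mice, 3.25, 5.17, 3.75 and 4.77 in the HC_Caffeine mice, 3.87, 3.9, 2.9 and 3.58 in the MWM_water mice and 3.54, 3.64, 3.59 and 4.58 in the MWM_Caffeine mice. The MWM_water mice were all below the HC_water mice, and the MWM_Caffeine mice lay within the range of the HC_Caffeine mice. The mean of Syt9 went from 5.56 to 3.56 CPM under water and from 4.23 to 3.84 CPM under caffeine. The averaged log2 fold change was -0.39 (SE 0.12, 95% interval -0.64 to -0.13, adjusted p = 0.0595, edgeR).

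Syt12 was at 45.3, 40.1, 40.2 and 45.2 CPM in the HC_water mice, 45.5, 41.2, 36.6 and 38.9 in the HC_Caffeine mice, 39, 37.1, 34.4 and 33.6 in the MWM_water mice and 44.7, 35.7, 36.8 and 32.1 in the MWM_Caffeine mice. Syt12, a synaptotagmin of synaptic vesicles without calcium-binding residues, did not overlap between the water groups and overlapped between the caffeine groups. Its averaged log2 fold change was -0.18 (SE 0.064, 95% interval -0.32 to -0.05, adjusted p = 0.085, edgeR), and 17.2% of its exon bases lie under A930001C03Rik on the opposite strand. Syt12 passed in 4 of 16 fits that left out 1 library, Syt9 in 9, Stx17 in 10, Vamp8 in 15 and Syt4 in 16. With HC_water 20 and HC_Caffeine 17 both left out, Syt13 was the 1 member called (log2 fold change 0.14, adjusted p = 0.0349, edgeR), while Syt4 had an adjusted p of 0.122, Vamp8 0.164, Stx17 0.114, Syt9 0.211 and Syt12 0.175.

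**Figure D3:**
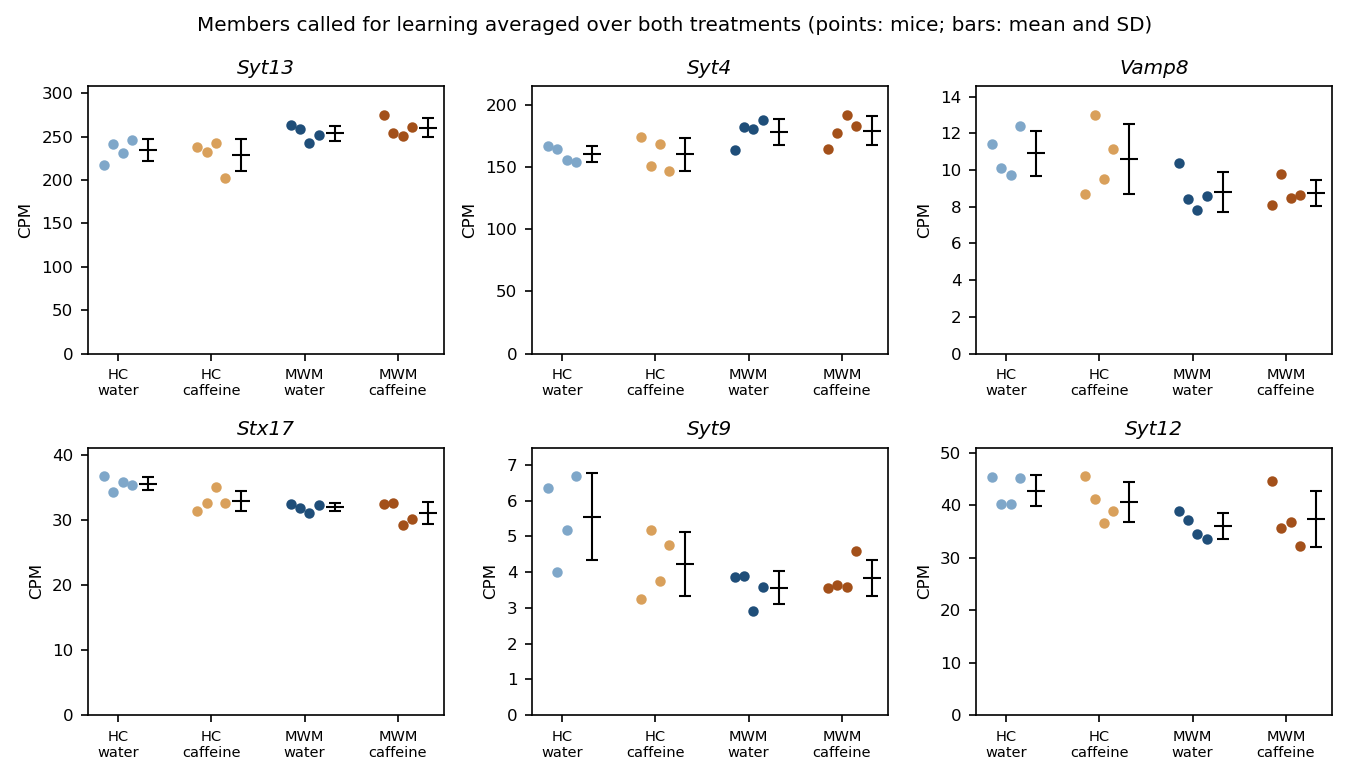
CPM of the 6 members called for learning averaged over both fluids, in each mouse (points), with mean and SD of the 4 mice beside them (bars); HC is home cage and MWM is maze training. In the mean, trained mice lie higher for Syt13 and Syt4 and lower for the other 4, by 0.12 to 0.39 on the log2 scale. The ranges of home cage and trained mice overlap for each gene.

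Markers of some other cells moved in the same comparison as these 6 genes. Of the choroid plexus list 7 of 7 genes had lower values after learning and 6 passed (median log2 fold change -1.26). Of the microglia list 5 of 6 had lower values and 3 passed (median -0.14), where 6.71% of all genes passed lower. Microglia sums were 277 to 323 CPM in home cage and 263 to 310 in trained mice, with 0 markers at 0. Of 6 astrocyte markers 1 passed higher and 1 lower, and of 5 endothelial markers 1 passed lower. In the lists of neurons, oligodendrocytes and oligodendrocyte precursors 0 passed. Across 16 libraries, the choroid plexus sum correlated with Stx17 (r = 0.636, permutation p = 0.00805; rho = 0.694, permutation p = 0.00361; adjusted 0.0476 and 0.0329), but not after the group means were removed (r = -0.0461, permutation p = 0.85). For Vamp8 r was 0.587 (permutation p = 0.0165, adjusted 0.0805) and 0.394 without the group means, for Syt9 0.554 and 0.11, and for Syt4 -0.56 and -0.414. Syt12 correlated inversely with the dentate sum (r = -0.676, permutation p = 0.00494, adjusted 0.0321, and rho = -0.691, permutation p = 0.00405, adjusted 0.0329). Without the group means r was -0.673 (permutation p = 0.00768, adjusted 0.0555). The part of these cells in the results was not tested.

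In mm10 the called genes other than Syt4 lie at chr2:92915098-92956058 (Syt13, plus strand), chr6:72385223-72390703 (Vamp8, minus strand), chr4:48124915-48186507 (Stx17, plus strand), chr7:107370728-107548656 (Syt9, plus strand) and chr19:4445908-4477447 (Syt12, minus strand), and counts were summed over the exons of each. Promoter sequence was available in RefSeq (GRCm38.p6) for 48 of the 61 members, as 64 windows of 300 bases that run from 250 bases before to 50 after a transcript start. The cAMP response element TGACGTCA was in 2 members (Stxbp3 and Syn1) and 3.12% of their windows, against 1.79% of all 32851 promoter windows. The AP-1 motif TGANTCA was in 4 members (Syt2, Syt6, Syt8 and Vamp9) and 6.25% of windows, against 7.81% of all, and the EGR motif GCGNGGGCG in 7 (Cplx1, Stx2, Stxbp5, Stxbp5l, Syn2, Syt16 and Vamp4) and 10.9%, against 5.55%. Both strands were searched, and a match is a run of letters, not a site.

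Shown first are the windows of 2 core genes that hold a motif (in capitals), the cAMP response element in Syn1 (chrX:20920869-20921168, minus strand) and the EGR motif in Cplx1 (chr5:108549978-108550277, minus strand), because CREB and EGR factors respond to neuronal activity.
Syn1: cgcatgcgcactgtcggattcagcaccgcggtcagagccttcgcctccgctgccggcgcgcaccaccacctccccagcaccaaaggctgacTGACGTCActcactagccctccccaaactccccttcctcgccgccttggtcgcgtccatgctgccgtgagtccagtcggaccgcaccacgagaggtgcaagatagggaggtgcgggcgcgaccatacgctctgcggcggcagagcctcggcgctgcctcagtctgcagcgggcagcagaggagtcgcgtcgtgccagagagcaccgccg
Cplx1: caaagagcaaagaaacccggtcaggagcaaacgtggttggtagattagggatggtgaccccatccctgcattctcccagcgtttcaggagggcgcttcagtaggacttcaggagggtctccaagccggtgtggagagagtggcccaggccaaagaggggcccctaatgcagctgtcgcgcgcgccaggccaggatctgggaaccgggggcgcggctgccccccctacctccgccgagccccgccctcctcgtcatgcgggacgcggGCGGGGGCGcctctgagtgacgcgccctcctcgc
Neither gene was called in any comparison: the log2 fold change of learning under water was 0.02 (95% interval -0.11 to 0.15) for Syn1 and -0.0004 (-0.19 to 0.19) for Cplx1.

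Also printed are the windows of 3 members that fell and have an entry, Stx17 (chr4:48124669-48124968, plus strand), Vamp8 (chr6:72390618-72390917, minus strand) and Syt9 (chr7:107370540-107370839, plus strand). They hold none of the 3 motifs and so no capitals. Syn1 and Cplx1 were picked for a motif and these 3 for a fall, so the contrast between them comes from the choice and shows nothing about motifs and learning.
Stx17: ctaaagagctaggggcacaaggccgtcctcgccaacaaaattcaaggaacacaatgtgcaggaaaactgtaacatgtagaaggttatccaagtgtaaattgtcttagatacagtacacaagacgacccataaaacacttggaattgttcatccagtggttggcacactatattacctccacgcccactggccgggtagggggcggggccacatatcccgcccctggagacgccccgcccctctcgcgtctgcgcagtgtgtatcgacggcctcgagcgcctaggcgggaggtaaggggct
Vamp8: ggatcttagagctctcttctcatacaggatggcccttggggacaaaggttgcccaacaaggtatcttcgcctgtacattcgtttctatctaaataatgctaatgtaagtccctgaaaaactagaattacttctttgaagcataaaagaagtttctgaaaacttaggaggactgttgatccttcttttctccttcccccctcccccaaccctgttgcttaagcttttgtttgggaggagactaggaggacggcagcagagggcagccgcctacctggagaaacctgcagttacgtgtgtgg
Syt9: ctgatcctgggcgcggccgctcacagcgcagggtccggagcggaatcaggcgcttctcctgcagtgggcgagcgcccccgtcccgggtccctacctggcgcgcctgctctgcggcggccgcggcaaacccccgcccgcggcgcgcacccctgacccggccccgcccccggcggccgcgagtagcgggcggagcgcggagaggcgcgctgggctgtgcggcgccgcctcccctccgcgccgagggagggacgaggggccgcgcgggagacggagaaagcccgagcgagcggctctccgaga

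Within each fluid the calls were fewer. Under water, learning changed 0 of 58 members by edgeR (background 0.97%), with 6 at an unadjusted p under 0.05 (10.3%, against 11.8% of all genes), and DESeq2 called 1, Syt9. The groups did not overlap for 3 members, Syt9, Stx17 and Syt12, all lower after learning (background 6.99% in either direction, 3.12% lower). Syt9 had the smallest p, with means of 5.56 ± 1.22 CPM (SD, n = 4) in HC_water and 3.56 ± 0.464 (SD, n = 4) in MWM_water mice, a log2 fold change of -0.64 (SE 0.17, 95% interval -1.0 to -0.28) and an adjusted p of 0.121 in edgeR (0.0291 in DESeq2). Stx17 followed at -0.15 (-0.27 to -0.04, adjusted p = 0.235, edgeR).

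Under caffeine, learning raised 1 of 58 members, Syt13 (1.72%, against 5.28% of all genes and 3.16% in that direction), and lowered 0 (background 2.13%). Its adjusted p was 0.0991 (edgeR), just under the threshold, and the call was lost in 9 of 16 fits that left out 1 library, including the one without HC_Caffeine 17 (log2 fold change 0.14, adjusted p = 0.222). The groups did not overlap for Syt13 and for Stx8, an endosomal syntaxin that was lower after learning (background 10.9%). An unadjusted p under 0.05 was found for 6 members (10.3%, against 18.8% of all genes), among them Syt4, Syt17, Sv2b and Vamp8 with adjusted p from 0.181 to 0.244 (edgeR).

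Whether caffeine changed the learning response was asked by the difference between both responses, and 0 of 58 members passed (background 0%), with 0 at an unadjusted p under 0.05 in edgeR (3.63% of all genes) and 1 in DESeq2. The smallest p was that of Syt9, whose response was 0.51 higher on the log2 scale under caffeine than under water (95% interval -0.01 to 1.02, adjusted p = 1, edgeR), and the next that of Vamp3, a VAMP of recycling endosomes, at -0.19 (-0.43 to 0.06). The mean of Syt9 fell with learning under both fluids, from 5.56 to 3.56 CPM under water and less, from 4.23 to 3.84 CPM, under caffeine. Vamp3 was highest in MWM_water 24 (37.5 CPM, against 26.8 to 33.5 in the other 15 mice), and without that library its difference was -0.08. All 6 oligodendrocyte markers had differences below 0 (median -0.57, 2 at an unadjusted p under 0.05 and 0 after adjustment), and their part in the Vamp3 value was not tested. Intervals of this difference stayed within 0.5 of 0 for 46 of the 58 members.

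Caffeine against water in the home cage gave 0 calls among the 58 members and 0 among all genes (background 0%) in edgeR, and DESeq2 called 0 members. At an unadjusted p under 0.05 there was 1 member in edgeR (1.72%, against 3.57% of all genes) and 2 in DESeq2, and 0 members had groups that did not overlap (background 1.99%). The member of smallest p was Syt9 (values above), at a log2 fold change of -0.40 (SE 0.17, 95% interval -0.77 to -0.04, adjusted p = 0.997, edgeR), and the next Stx17 at -0.11 (-0.22 to 0.0008). Log2 fold changes were above 0 for 17 of 58 members (29.3%, against 48.7% of all genes), with a median of -0.03 where that of all genes was -0.0031. The median was -0.019 without HC_water 11 (59 members) and -0.018 without HC_water 20 (35 of 58 below 0), and -0.025 without HC_Caffeine 17 (59 members). The interval lay within 0.5 of 0 for 49 members. In the same comparison 7 of 7 choroid plexus markers had lower values under caffeine, all at an unadjusted p under 0.05 and 0 after adjustment (median log2 fold change -1.75), and their part in the member values was not tested.

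After learning, caffeine against water likewise gave 0 calls among members and all genes (background 0%) in edgeR and 0 among members in DESeq2, with 0 members at an unadjusted p under 0.05 in either (3.93% of all genes in edgeR). Cplx3, the complexin of ribbon synapses and some cortical neurons, and Stxbp2, a syntaxin-binding protein of epithelial and blood cells, had the smallest p values. Cplx3 was at 2.72 ± 0.501 CPM (SD, n = 4) in MWM_water and 3.77 ± 1.08 (SD, n = 4) in MWM_Caffeine mice, a log2 fold change of 0.48 (95% interval -0.04 to 1.0, adjusted p = 0.999, edgeR). Stxbp2 measured 34, 29.4, 35.4 and 38.7 CPM in the HC_water mice, 33.1, 32.3, 34.5 and 52.7 in the HC_Caffeine mice, 32.4, 27.9, 31.7 and 28 in the MWM_water mice and 39.5, 33.6, 33 and 35.5 in the MWM_Caffeine mice. Stxbp2 was the 1 member whose MWM groups did not overlap (background 2.60%), and HC_Caffeine 17 was far above the other mice. Its log2 fold change after learning was 0.24 (-0.03 to 0.51).

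Averaged over home cage and trained mice, caffeine again changed 0 of 58 members (background 0%, DESeq2 0), with 1 at an unadjusted p under 0.05 in each tool (1.72%, against 4.07% of all genes in edgeR). Stxbp2 was that member, at 0.19 (SE 0.091, adjusted p = 0.985, edgeR), and 0.098 without HC_Caffeine 17. The interval of the averaged caffeine difference lay within 0.5 of 0 for 54 members.

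**Figure D4:**
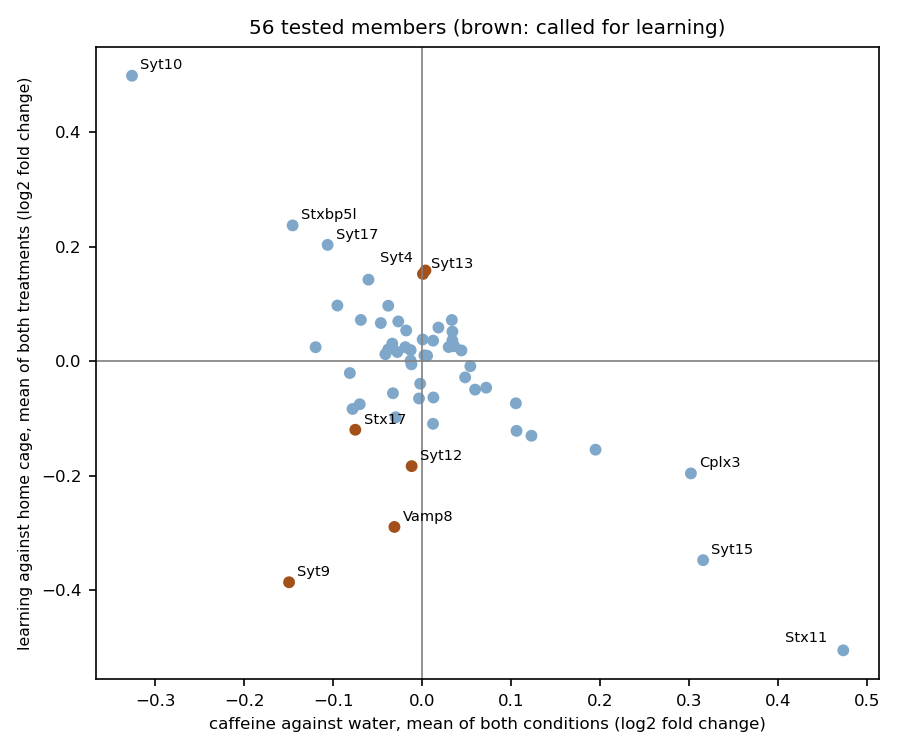
Log2 fold change of 56 tested members for caffeine against water (horizontal, mean of both conditions) and for learning against home cage (vertical, mean of both fluids); brown points are the 6 called for learning. Most members sit near 0 on both axes, and the scarce genes Syt10, Stx11, Syt15 and Cplx3 lie farthest out on the caffeine axis without passing.

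How much a member varied between mice of 1 group differed widely between genes. The median of the within-group coefficient of variation was 7.83%, 39 of 58 members were under 10%, and the endosomal SNAREs Stx7 (2.17%) and Vamp4 (3.37%) and the calcium sensor Syt1 (3.61%) varied least. Of the members with at least 3 CPM, 8 exceeded 15%: Sv2c (16.8%), Syt9 (17.2%), Stxbp5l (19.6%), Stxbp6 (19.9%), Syn3 (21.7%), Syt2 (24.4%), Cplx3 (25.7%) and Syt10 (33.1%). These 8 and the 6 called members, 13 genes in all, were set against 5 marker lists after their spread had been seen, which gives the 65 relations.

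Of these 8 genes 5 (Stxbp6, Sv2c, Syt10, Syn3 and Stxbp5l) followed the dentate gyrus markers from mouse to mouse. The share of all tested genes that follow these markers as closely was not measured. The count of 5 is therefore not shown to be particular to the members. The 5 dentate granule cell markers (Prox1, Dsp, C1ql2, Trpc6 and Pdzd2) summed to 278 to 506 CPM over the 16 libraries, and the ranges of the 4 groups overlapped. Stxbp6, encoding the syntaxin-binding protein amisyn, correlated with that sum at r = 0.942 (permutation p = 1e-05, the smallest that 100000 permutations can give) and rho = 0.924 (permutation p = 1e-05), adjusted p = 0.000433 and 0.00065, and r was 0.975 without the group means and 0.916 without the 2 farthest libraries. Stxbp6 measured 128, 204, 191 and 143 CPM in the HC_water mice, 113, 179, 212 and 125 in the HC_Caffeine mice, 145, 156, 190.3 and 204 in the MWM_water mice and 153, 159, 133 and 179 in the MWM_Caffeine mice. The ranges of the 4 groups overlapped, with MWM_Caffeine mice between 133 and 179 CPM, and the log2 fold changes of Stxbp6 between groups were from -0.15 to 0.06.

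Sv2c, the SV2 isoform known from the basal ganglia, gave r = 0.887 (permutation p = 2e-05) and rho = 0.879 (permutation p = 3e-05), adjusted 0.000433 and 0.000975, and 0.937 without the group means. Syt10, a synaptotagmin that seizures induce, gave r = 0.866 (permutation p = 2e-05) and rho = 0.832 (permutation p = 0.00012), adjusted 0.000433 and 0.00195, and 0.914 without the group means. Syn3, which contains Timp3 on its opposite strand over 14.1% of its exon bases, gave r = 0.816 (permutation p = 0.00012) and rho = 0.832 (permutation p = 0.00012), adjusted 0.00195 for both, and 0.87 without the group means. With the 2 farthest libraries left out, r was 0.865, 0.818 and 0.792 for these genes. Stxbp5l (tomosyn-2) followed less closely, at r = 0.706 (permutation p = 0.00029) and rho = 0.726 (permutation p = 0.00194), adjusted 0.00377 and 0.021. These genes also ran against the CA3 sum when the 2 libraries farthest from its median were left out. There r was -0.854 for Sv2c, -0.711 for Syn3, -0.66 for Stxbp6, -0.578 for Syt10 and -0.517 for Stxbp5l. Over all 16 libraries it was -0.193, -0.135, -0.0427, 0.0566 and 0.319. The relation is thus not shown to be particular to the dentate list.

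Syt10 measured 2.42, 4.11, 3.93 and 1.85 CPM in the HC_water mice, 2.28, 2.8, 4.26 and 1.7 in the HC_Caffeine mice, 3.27, 4.77, 5.11 and 6.45 in the MWM_water mice and 2.83, 3.04, 3.01 and 5.02 in the MWM_Caffeine mice. Syt10 was above the home cage median in 8 of 8 trained mice and above the highest home cage mouse in 4. Its learning log2 fold change was 0.67 (SE 0.29, 95% interval 0.05 to 1.28, adjusted p = 0.379, edgeR) under water and 0.50 (0.06 to 0.94, adjusted p = 0.141, edgeR) averaged, which did not pass. The dentate sum had medians of 366 CPM in HC_water, 353 in HC_Caffeine, 427 in MWM_water and 382 in MWM_Caffeine, 0 of its markers were at 0, and its part in the Syt10 values was not tested.

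Syt2, a fast calcium sensor prominent in parvalbumin interneurons and the hindbrain, went with other lists. It correlated with the CA1 sum (r = 0.754, permutation p = 0.00109; rho = 0.653, permutation p = 0.0075; adjusted 0.00886 and 0.0487) and the inhibitory neuron sum (r = 0.718, permutation p = 0.00235; rho = 0.603, permutation p = 0.0152; adjusted 0.017 and 0.0822), but r was 0.483 and 0.328 without the 2 farthest libraries, so both relations rest largely on those. The highest Syt2 value, 52.1 CPM, was in HC_water 6. For Cplx3 the smallest p was with the CA3 sum (r = -0.582, permutation p = 0.0173; rho = -0.491, permutation p = 0.0555; adjusted 0.0805 and 0.2).

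**Figure D5:**
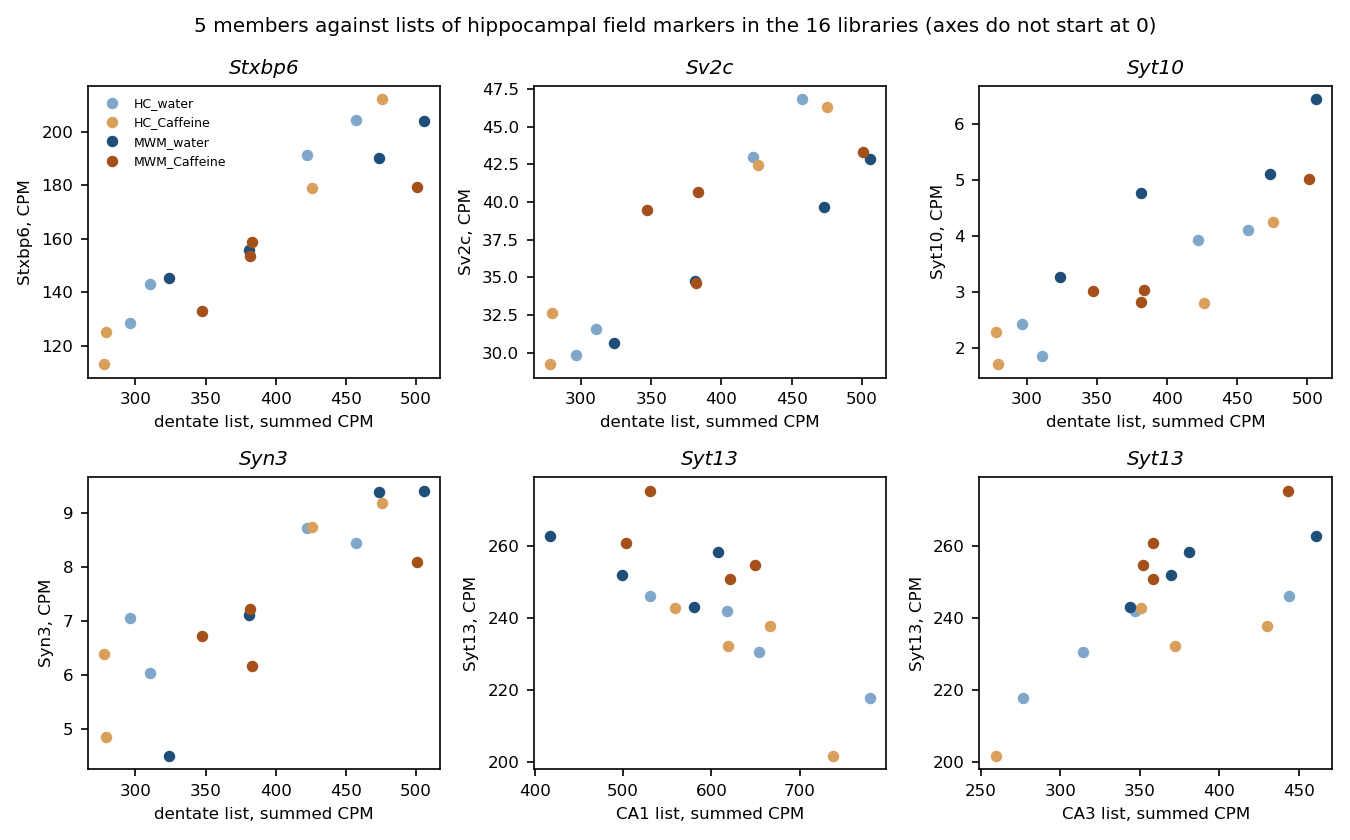
CPM of 5 members (vertical) against the summed CPM of marker lists (horizontal) in the 16 libraries, colored by group; axes do not start at 0. Stxbp6, Sv2c, Syt10 and Syn3 rise with the dentate list (r from 0.816 to 0.942), and Syt13 is lower where the CA1 list is high and higher where the CA3 list is high.

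A list of 55 further genes of the release machinery (active zone scaffolds, priming factors, vesicle transporters, endocytosis) was compared with the members, and 53 of them were tested. For learning averaged over both fluids 7 passed (13.2%, where 14.5% of all genes passed), with a median log2 fold change of 0.06. Of these, 7 were higher (background 7.81%) and 0 lower (background 6.71%). Bsn (bassoon, an active zone scaffold) had the largest difference of these 7, at 0.30 (95% interval 0.14 to 0.46, adjusted p = 0.0253, edgeR), followed by Erc1 (0.18), another active zone scaffold, the SNAREs Snap23 (0.16) and Snap29 (0.15), the endocytic genes Itsn1 (0.16) and Synj1 (0.15), and Snph (0.11), which anchors axonal mitochondria. In the other 6 comparisons 0 of the 53 passed in edgeR, with 1 to 9 at an unadjusted p under 0.05. The share was 17% for learning under caffeine (18.8% of all genes) and 7.55% for learning under water (11.8%). It was 5.66% for caffeine after learning (3.93% of all genes) and 1.89% for caffeine in the home cage (3.57%). The difference between the learning responses also gave 1.89% (3.63% of all genes).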

How the data were processed

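Dorsal hippocampal RNA of 16 mice (4 groups of 4, 1 library per mouse) was sequenced as single-end reads from a stranded poly(A) kit. The authors aligned reads to mm10 with STAR, kept unique alignments and counted them per Ensembl gene with HTSeq (0.6.1p1, union mode), and the deposited values are raw read counts per gene. The strand setting of counting is not given in the sources used here.

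Of 35328 identifiers, 35247 matched GENCODE M21 and 81 did not. Counts were fitted in edgeR 4.0.16 (R 4.3.3) by the quasi-likelihood test with TMM scaling, filterByExpr and 1 mean per group over all 16 libraries, and 17830 genes were tested. Adjusted p-values are Benjamini-Hochberg values over all of these, called under 0.1. Standard errors and 95% intervals were worked back from the F statistic of each test. The p-values set each difference against a spread between mice that is estimated partly across genes. DESeq2 1.42.0, other scaling, count filters and thresholds, and each library left out were alternatives. The fits were tested on simulated data.

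CPM use the TMM-scaled totals, and levels per length the summed exon length. Genes with values are the called members, 11 core genes, the 2 members of smallest p where none was called, family extremes and members below the filter. The members and lists were chosen with earlier results of these data known, and the ratios, the spread and the marker correlations (100000 permutations, two-sided) after seeing the data. The comparisons share mice. Stxbp3 counts are uncertain because the table also holds its processed pseudogene, as are those of 5 members with over 10% of exon bases under a gene on the other strand (Stx18, Syt12, Syp, Syt4 and Syn3). Results for 2 members are not reported here, though counts over all members include them.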

Additional observations from a re-analysis of the deposited data

Results flagged for a closer look

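In 5 of 104 groups of 4 mice, over 26 named members, 1 mouse lay far from the other 3 by Dixon's ratio, which chance exceeds in about 1 in 20 groups. Stxbp2 was at 52.7 CPM in HC_Caffeine 17, against 32.3 to 34.5 in the rest of its group. Syt1 was at 1756 CPM in MWM_Caffeine 27, against 1720 to 1725, a small gap in a group of narrow spread. MWM_Caffeine 40 held the other 3, with Syt10 at 5.02 CPM (2.83 to 3.04 in the others), Syt9 at 4.58 CPM (3.54 to 3.64) and Syt2 at 28.4 CPM (33.5 to 34.2).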

How the results depend on the processing

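The count of members called was 0 under every alternative run for caffeine in the home cage, after learning and averaged, and for the difference between the learning responses. For learning under water it was 0, and 1 with DESeq2 and with all genes of at least 1 count, and 0 to 1 with 1 library left out (1 without HC_water 8). For learning under caffeine it was 1, and 0 with all genes of at least 1 count, at an adjusted p under 0.05, with the 8 libraries compared only and with HC_water 20 and HC_Caffeine 17 both left out. With 1 library left out it ran from 0 to 3, at 3 without HC_Caffeine 2, 2 without HC_Caffeine 14, and 0 without HC_Caffeine 9 or 17, MWM_water 33, 36 or 38, or any MWM_Caffeine library. For learning averaged over both fluids it was 6, and 3 at an adjusted p under 0.05, 1 with both libraries left out, and 3 to 8 with 1 left out, at 3 without HC_water 6, HC_water 20, MWM_water 36 or MWM_Caffeine 30. The cause was not tested. Leaving out both libraries was chosen after seeing the data. No called log2 fold change changed sign under any alternative, whereas some uncalled values and medians over the members near 0 did. The medians are over the members that passed each count filter, so the set of members changed too. It held 58 in the main fit, 61 with all genes of at least 1 count and 58 or 59 with 1 library left out. The median for learning under water was -0.0093, and 0.0011 with all genes of at least 1 count. With 1 library left out it ran from -0.013 to 0.0061 (above 0 without any 1 HC_water library, HC_Caffeine 2 or MWM_Caffeine 22). That for averaged caffeine was -0.012, and -0.017 to 0.0013 with 1 left out (above 0 without HC_water 20, HC_Caffeine 17 or MWM_Caffeine 40) and 0.00061 with both left out. That for caffeine in the home cage stayed below 0, from -0.044 to -0.018 with 1 left out. No paired analysis was possible because the groups share no replicate numbers. Depth limits Syt8, Cplx4, Vamp9 and Stx11, at 0 to 16 counts per library, most.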
